A study of Mus musculus with 54 samples.

Results

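The cells described here are the transplanted cells that the deposited annotation assigns to the type tMPP2, followed from day 3 to day 7 after transplantation. They were chosen by 2 entries of that annotation, the origin Tx and the predicted type tMPP2, and number 348 of 1031 transplanted cells and of 2301 annotated cells. The study profiled single blood cells of C57BL/6 mice, labelled 8 to 10 weeks old, at rest and after transplantation, in 54 libraries made by a modified Smart-seq2 protocol that, per the labels, covers the 3′ ends of mRNA. The labels of libraries with transplanted cells give the collection day and the organ (bone marrow, spleen, or both together), and all 348 cells carry the sort label GFPP. The labels name no donor genotype, recipient treatment or animal, so each p-value below measures the spread between libraries, which may be technical.

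A multipotent progenitor (MPP) is a blood cell precursor that has left the stem cell pool but still gives rise to several lineages. In the mouse, the MPP2 class is known for a leaning towards megakaryocytes, the cells that shed platelets, and towards red blood cells. After a transplant, donor stem cells leave quiescence and divide, and their descendants replace genes of stem cell identity with genes of the lineages they enter. The type names with a small t are the authors' predicted classes. Cells of this class were compared with each other by day, so that the mix of predicted classes in a library does not enter the gene comparisons. The mix of cells inside the class can still differ between libraries and days.

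The comparisons between days used the 291 tMPP2 cells of 14 libraries that hold at least 5 such cells and a single day label. Day 3 had 3 libraries (50 cells, 2797109 to 3091763 summed counts), day 5 had 6 (166 cells, 4765712 to 15833245 counts) and day 7 had 5 (75 cells, 3187786 to 9123258 counts). Outside these stood 16 cells of day 1, 18 cells of day 7 in 5 libraries with under 5 tMPP2 cells, and 23 cells of 3 libraries that pooled days. Organ and library number were unevenly spread over the days. The day 5 libraries L68, L69 and L70 are labelled spleen alone, L72 of day 5 and L60 of day 7 bone marrow alone, and all others both organs. All 3 day 3 libraries carry numbers from L79 upwards, whereas L86 of day 5 and L78 of day 7 are the only libraries of the later days numbered above L72 in these comparisons, so library number and day 3 cannot be told apart. L78 stood apart from the other day 7 libraries in several gene groups and L86 from the other day 5 libraries, and both are given by name below.

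The label was first set against its markers. Over all 348 cells, summed levels were 207 counts per 1000000 counts (CPM) for Gata2, a transcription factor of early progenitors and megakaryocytes, 837 CPM for Pf4, a platelet chemokine, 326 CPM for Mki67, a marker of dividing cells, and 1329 CPM for Ncl, a nucleolar protein. In 88 steady state T cells the same sums were 0.928, 0.0774, 3.71 and 383 CPM. Cd3e, which defines T cells, reached 0.121 CPM in the tMPP2 cells. Nearer relatives lay closer for single markers. In the same order of genes, 305 steady state cells of stem cell gates held 211, 60, 30.35 and 590 CPM. The 19 cells of the MK gate held 13.2, 347, 200 and 226 CPM, and the 19 of the MEP gate 49.2, 4.17, 49.3 and 921 CPM. Gata2 thus did not set the class apart from stem cells. Megakaryocyte RNA was uneven between libraries: Pf4 stood at 84.1, 196 and 1384 CPM in the day 3 libraries, at 539 to 1418 on day 5 (median 726), and at 1359, 144, 1734, 118 and 4229 on day 7. The days overlapped widely, and Pf4 did not pass the test in any comparison (day 7 against day 3 adjusted p = 0.620). Gata2 (adjusted p = 0.934), Mki67 (0.563) and Ncl (0.227) did not pass the test between day 7 and day 3 either, nor between the neighbouring days.

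Counts were summed over the tMPP2 cells of each library and compared with edgeR's quasi-likelihood test over 11395 genes, with a gene called at a Benjamini-Hochberg adjusted p under 0.05. In such sums, fewer cells carrying an RNA and less of it per cell cannot be told apart; shares of cells are therefore given beside the main genes. Day 5 against day 3 called 2 genes higher and 0 lower (0.0176% of the genes tested), with 821 genes at an unadjusted p under 0.05. Between day 7 and day 5, 9 genes were called higher and 15 lower (0.211%). From day 3 to day 7 the test called 65 higher and 63 lower (1.12%), and a linear trend over the 3 days called 107 higher and 62 lower (1.48%). These comparisons share libraries, so their calls are not independent of each other. These counts moved with single libraries. Day 7 against day 3 called 39 genes without L85, 74 without L89, 78 without L79, 80 without L71, 83 without L72 and 265 without L78. Day 7 against day 5 called 14 without L69, 37 without L63, 50 without L86 and 55 without L78. Day 5 against day 3 called 1 without L85, 4 without L89 and 14 without L78, and the trend called 82 without L85 and 255 without L78.

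Several genes of haematopoietic stem cell identity fell between day 3 and day 7. Of 23 tested members of that list, 6 were called lower on day 7 than on day 3 and 0 higher, against 0.553% of all tested genes called lower. The called members were Hlf, Procr, Mecom, Fgd5, Ly6a and Pdzk1ip1, and the list median was -0.75 on the log2 scale beside 0.0084 for all tested genes. Between day 7 and day 5, 3 of the 23 were called lower, against 0.132% of all tested genes. The summed list was 4809, 5577 and 3787 CPM on day 3 and 3750.5 to 4590 CPM on day 5. On day 7 it was 3239.5, 2458, 2189, 3742 and 4005 CPM, so the sums of the days overlapped, with L78 the highest of day 7.

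Hlf, a transcription factor that marks stem cells and is switched off as they differentiate, lies on chromosome 11 (GRCm38, 90336536 to 90390895, minus strand). Its level was 81.7, 149 and 113 CPM in the day 3 libraries. On day 5 it ranged from 22.2 to 94.7 CPM (median 64.4), with the lowest value in L86. On day 7 it was 22.2, 10.9, 14.8, 13.5 and 5.99 CPM, so every day 7 library lay below every day 3 library, as for 4.35% of tested genes, and L47 of day 7 met L86 of day 5 at 22.2 CPM. The log2 change was -3.09 ± 0.45 (SE) against day 3 (adjusted p = 0.000378) and -2.18 ± 0.39 against day 5 (0.0117). The call against day 5 ended in 3 of 27 alternatives (adjusted p up to 0.558). The spleen libraries held the highest Hlf levels of day 5, and spleen libraries occur on that day alone. Day 5 against day 3 did not pass the test (log2 change -0.91 ± 0.41, adjusted p = 0.662).

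Procr encodes the endothelial protein C receptor, a surface marker of the most potent stem cells. It stood at 107, 104 and 78.3 CPM on day 3, at 15 to 54.9 CPM on day 5 (median 46.8), and at 5.49, 9.27, 5.35, 22.2 and 0.599 CPM on day 7. All day 5 libraries were below all day 3 libraries, as were 2.49% of the tested genes, and the log2 change from day 3 to day 7 was -3.48 ± 0.59 (adjusted p = 0.00275). Neither neighbouring pair of days passed the test for Procr (day 7 against day 5 adjusted p = 0.0609). Mecom, which encodes the stem cell regulator EVI1, had 59.3, 94.6 and 75.9 CPM on day 3 and 23.2 to 64.3 on day 5 (median 41.2). Its day 7 values were 20.1, 10.1, 14.5, 21.5 and 2.10 CPM, below all earlier libraries (1.34% of tested genes lay so against day 5), with a log2 change of -2.49 ± 0.51 from day 3 (adjusted p = 0.0149), which did not pass without L85 (adjusted p = 0.0877).

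Ly6a, the gene of the surface antigen Sca-1 on chromosome 15 (74994877 to 74998031, minus strand), fell by day 7. It was 460.3, 592 and 346 CPM on day 3 and 245 to 722 CPM on day 5 (median 316), the highest being L86. On day 7 it was 144, 103, 36.8, 74.7 and 25.7 CPM, below every library of days 3 and 5. The log2 change from day 5 to day 7 was -2.29 ± 0.41 (adjusted p = 0.0221) and did not pass without L63 (0.0524), and the fall from day 3 did not pass without L85 (0.0721). Pdzk1ip1, a small membrane protein gene active in stem cells, had its lower values on day 5 already. Its day 3 libraries held 149, 93.0 and 115 CPM, the day 5 libraries 27.4 to 45.4 CPM and the day 7 libraries 22.2 to 66.7 CPM, and the difference passed the test for day 7 against day 3 (log2 change -1.81 ± 0.37, adjusted p = 0.0150) but not for day 5 against day 3 (adjusted p = 0.135), nor for day 7 against day 3 without L79 (0.0790). Whether the timing of these genes differs was not tested.

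Fgd5, whose locus is used to mark stem cells, had 201 counts in the 3 libraries of day 3, 660 in the 6 of day 5 and 2 in the 5 of day 7, where L63 alone held them (adjusted p = 0.000966 against day 3). Nkx2-3, a homeobox gene outside the list that is active in stem cells, was at 65.8, 103 and 17 CPM on day 3, 7.30 to 42.9 on day 5 and 2.52 to 4.49 on day 7 (log2 change -4.01 ± 0.63, adjusted p = 0.000966). Egfl7, also outside the list, which encodes a secreted vascular factor, fell by 1.56 ± 0.28 (adjusted p = 0.00413), from 299, 166 and 205 CPM to 47 to 102 CPM. The Egfl7 call ended in 3 of 27 alternatives (adjusted p up to 0.209). Of 10 tested stromal and endothelial genes, 0 were called between day 7 and day 3, with 5 changes above 0 and 5 below. The sum of that list was nevertheless higher in every day 3 library (154 to 230 CPM) than on day 5 (60.3 to 106) or day 7 (70.4 to 137). This difference in the sums was not tested. Kit, the receptor for stem cell factor, passed the test by a small margin (log2 change -1.94 ± 0.47, adjusted p = 0.0452), and its day 7 values of 43.6 to 70.7 CPM in 4 libraries were joined by 4.49 CPM in L78. The Kit call ended when any 1 of 12 libraries was left out (adjusted p of 0.0534 to 0.226), and in 16 of all 27 alternatives (up to 0.249). Cd34 (adjusted p = 0.677) and Flt3 (0.369) did not pass the test between day 7 and day 3.

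**Figure D1:**
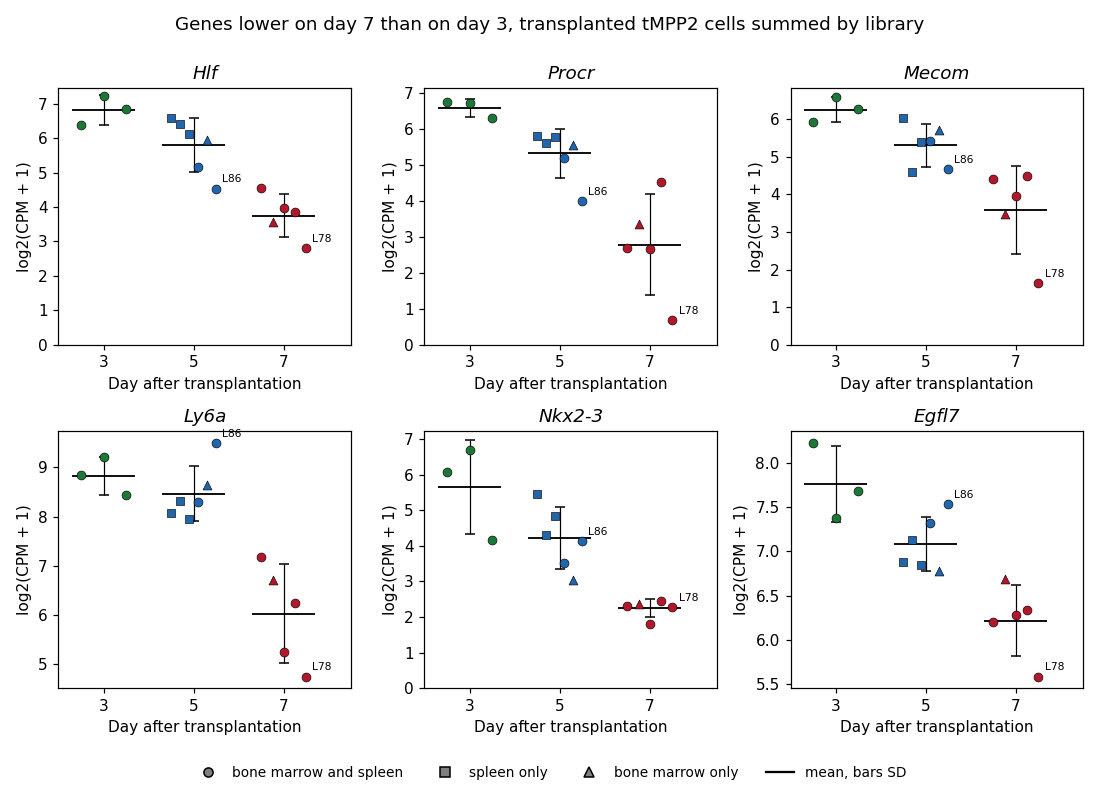
Level of Hlf, Procr, Mecom, Ly6a, Nkx2-3 and Egfl7 as log2(CPM + 1) in the 14 libraries of tMPP2 cells by day after transplantation; each point is 1 library, its shape gives the organ label, lines are means and bars SDs. Day 7 points lie below day 3 points in all 6 panels, and the libraries L86 (day 5) and L78 (day 7) are named.

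The share of cells with at least 1 count was compared after each cell had been thinned to 20000 counts. Hlf was found in 57.4% ± 12.8 (SD over 3 libraries) of tMPP2 cells at day 3, in 43.6% ± 9.43 (6 libraries) at day 5 and in 19.2% ± 10.6 (5 libraries) at day 7; without thinning the pooled shares were 88%, 83.7% and 44%. Among cells in which Hlf was found, its median level was 112, 33.0 and 20.4 CPM on the 3 days. Procr was found in 60.2% ± 7.43, 37.1% ± 10.8 and 8.45% ± 5.49 of thinned cells. The T cells gave 1.14% for Hlf and 0% for Procr at the same depth, so the day 7 shares stood above that background. Cells with Hlf and cells with Cd48 were not separate sets: of 75 thinned day 7 cells, 12 held both, 2 held Hlf alone and 46 held Cd48 alone, and of 50 day 3 cells the numbers were 6, 23 and 5.

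Cd48 and Emilin2 were the 2 genes called between day 5 and day 3. Cd48, a surface receptor that is low on stem cells and present on MPP2 cells, lies on chromosome 1 (171682009 to 171705258, plus strand). It had 18.6, 7.13 and 23.8 CPM in the day 3 libraries, 73.5 to 294 CPM on day 5 (median 170.5) and 260, 303, 279, 336 and 159 CPM on day 7. Every later library was above every day 3 library, as were 3.14% of all tested genes on day 5 and 4.12% on day 7. The rise from day 3 was 3.37 ± 0.45 on the log2 scale by day 5 (adjusted p = 0.00158) and 4.02 ± 0.47 by day 7 (adjusted p = 4.11e-05). Emilin2, which encodes an extracellular matrix glycoprotein, rose from 6.55, 3.72 and 16.7 CPM to 42.8 to 75.5 CPM on day 5 (log2 change 2.78 ± 0.43, adjusted p = 0.00562), and stood at 182, 145, 178, 133 and 89.2 CPM on day 7. Without the spleen libraries neither gene passed the test between day 5 and day 3 (0 genes called), but both did between day 7 and day 3. The day 5 call of Emilin2 also ended without L79 (adjusted p = 0.0628) or L85 (0.0852).

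Mt1 had the smallest adjusted p of the genes named here for day 7 against day 3. It encodes a metallothionein, a small protein that binds zinc and copper, and lies on chromosome 8 (94179082 to 94180327, plus strand). The day 3 libraries held 106, 81.8 and 64.4 CPM and the day 5 libraries 135 to 285 CPM (median 171). The day 7 libraries held 1228, 725, 755, 594 and 1200.4 CPM, which was above every earlier library. Against day 5, Mt1 rose by 2.29 ± 0.22 (adjusted p = 2.64e-06), and against day 3 by 3.42 ± 0.31 (6.23e-07). It passed the test between day 7 and both earlier days under all 27 alternatives, some of which repeat the main fit. It was found in 35.9% ± 22 of thinned cells on day 3, 59.6% ± 8.85 on day 5 and 95.6% ± 4.19 on day 7, against 3.41% of T cells, and the median level among the cells in which it was found was 48.5, 73.6 and 672 CPM.

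Gata1 and Mfsd2b, 2 genes of the red cell lineage, were higher on day 7. Gata1, the master transcription factor of red cells and megakaryocytes, was at 15.2, 27 and 55.5 CPM on day 3 and 16.4 to 37.8 CPM in 5 day 5 libraries, with 78.9 CPM in L86. On day 7 it was 90.2, 177, 189, 193 and 63.1 CPM, and it rose by 1.97 ± 0.39 from day 5 (adjusted p = 0.0221). That call ended when any 1 of 8 libraries was left out (adjusted p of 0.0520 to 0.0972). Over all 27 alternatives it ended in 10, with an adjusted p up to 0.735. Gata1 was found in 22% ± 15.6, 29.7% ± 17.9 and 69.2% ± 15.1 of thinned cells on days 3, 5 and 7 and in 0 of 88 T cells. Mfsd2b, a sphingosine-1-phosphate transporter of red cells and platelets, had 8.37 to 22.1 CPM on day 3, 8.67 to 41.9 on day 5 and 133, 78, 133, 176 and 181 CPM on day 7. Its rise was 2.36 ± 0.36 from day 5 (adjusted p = 0.00288) and no day 7 library overlapped an earlier one, as for 0.816% of tested genes against day 5. This call of Mfsd2b ended in 2 of 27 alternatives (adjusted p up to 0.157). Of 15 tested members of the erythroid list, 2 were called higher between day 7 and day 3 (Gata1 and Mfsd2b), against 0.57% of tested genes called higher, and 5 in the trend, against 0.939%; 0 were called lower. The Gata1 call between day 7 and day 3 (adjusted p = 0.0415) ended when any 1 of 9 libraries was left out (0.0529 to 0.189).

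The 3 further erythroid members called in the trend were Aqp1, Car1 and Gfi1b. Aqp1, a water channel of red cells, was at 3.21 to 8.98 CPM on days 3 and 5 and at 6.40, 23.6, 30.2, 56.9 and 34.4 CPM on day 7 (trend adjusted p = 0.0356). Car1, a carbonic anhydrase of red cells, had 0 counts in the day 3 libraries, and on day 7 its levels were 9.75, 228, 0, 37.5 and 0 CPM (trend adjusted p = 0.0388). Most of it came from L60, the bone marrow library, in which Car1 was found in 47.8% of thinned cells against 9.09% of T cells. Gfi1b, a repressor needed for red cells and platelets, rose by 0.34 per day on the log2 scale (trend adjusted p = 0.0403). Each of these 3 calls ended when any 1 of 7 or more libraries was left out, with an adjusted p of at most 0.121 for Aqp1, 0.0831 for Car1 and 0.103 for Gfi1b. Over all alternatives the call ended in 10 of 27 for Aqp1, 13 of 25 for Car1 (adjusted p up to 0.244) and 16 of 27 for Gfi1b (up to 0.107).

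Genes of other myeloid lineages differed between libraries of the same day. Of 12 tested mast cell, basophil and eosinophil genes, the trend called 2 higher and 1 lower (Kit), against 0.939% and 0.544% of all tested genes. Day 7 against day 3 called 0 higher and 1 lower (0.57% and 0.553%), and day 7 against day 5 called 1 higher (0.079%). The list median from day 3 to day 7 was 2.36 and ranged from -0.768 to 5.91 over the alternatives. Fcer1a and Ms4a2, subunits of the IgE receptor of mast cells and basophils, passed the trend test (adjusted p = 0.00465 and 0.0383), but their day 7 levels were 0, 14.4, 21.4, 97.6 and 0 CPM for Fcer1a and 4.27, 56.8, 0, 113 and 0 CPM for Ms4a2. Il1rl1, the interleukin-33 receptor of mast cells, rose from day 5, where 4 of 6 libraries had 0 counts, to 3.96, 24.9, 11, 25.7 and 0.299 CPM on day 7 (adjusted p = 0.0149), while the day 3 library L85 held 18 CPM. The Fcer1a call ended without L86 (adjusted p = 0.0675), that of Ms4a2 without any 1 of 8 libraries (0.0551 to 0.0800) and that of Il1rl1 without L69 (0.0530) or L71 (0.0536). Over all alternatives the call ended in 3 of 23 for Fcer1a (adjusted p up to 0.156) and 13 of 23 for Ms4a2 (up to 0.2725). For Il1rl1 it ended in 4 of 25 (up to 0.4275). The neutrophil list had a median of 4.35 between day 7 and day 3 with 1 of 20 tested members called higher (Nkg7), beside a median of 0.0084 and 0.57% called higher over all tested genes. Mpo, the peroxidase of neutrophil granules, ranged on day 7 from 0.545 CPM in L60 to 213 CPM in L61 and did not pass the test (adjusted p = 0.368); the T cells showed Mpo in 20.5% of thinned cells. The summed neutrophil list was 368 to 535 CPM on day 3, 392 to 1113 on day 5 and 1384 to 6956 on day 7, with the highest values in L47 and L60.

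Nkg7, a granule protein gene, rose by 2.37 ± 0.42 from day 3 to day 7 (adjusted p = 0.00555), from 142, 60.5 and 81 CPM to 490.0, 325, 366, 602 and 652 CPM. Cst7, which encodes the protease inhibitor cystatin F, had 8 counts in all day 3 libraries and 66.4 to 95.4 CPM in every day 7 library (adjusted p = 0.00892). Clca3a1, a chloride channel regulator (rise of 3.77 ± 0.66, adjusted p = 0.00453), Gadd45g, a growth arrest gene (3.64 ± 0.58, 0.00115), and Runx3, a transcription factor (1.76 ± 0.40, 0.0307), rose over the same days. F2r, the thrombin receptor, was the 1 of 24 tested megakaryocyte genes called higher on day 7 than on day 3 (1.70 ± 0.36, adjusted p = 0.0181), against 0.57% of all tested genes. Without L85 or L89 in turn the calls ended for Nkg7 (adjusted p = 0.0683 and 0.0501), Cst7 (0.0652 and 0.0666) and F2r (0.104 and 0.0968), Clca3a1 lost its call without L89 (0.0501), and Runx3 lost it without any 1 of 7 libraries (0.0501 to 0.115). The summed megakaryocyte list reached 12596 CPM in L78 against 1929 to 5266 CPM in the other day 7 libraries, and 3 of the 11 cells of L78 had more than 10000 CPM of it.

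**Figure D2:**
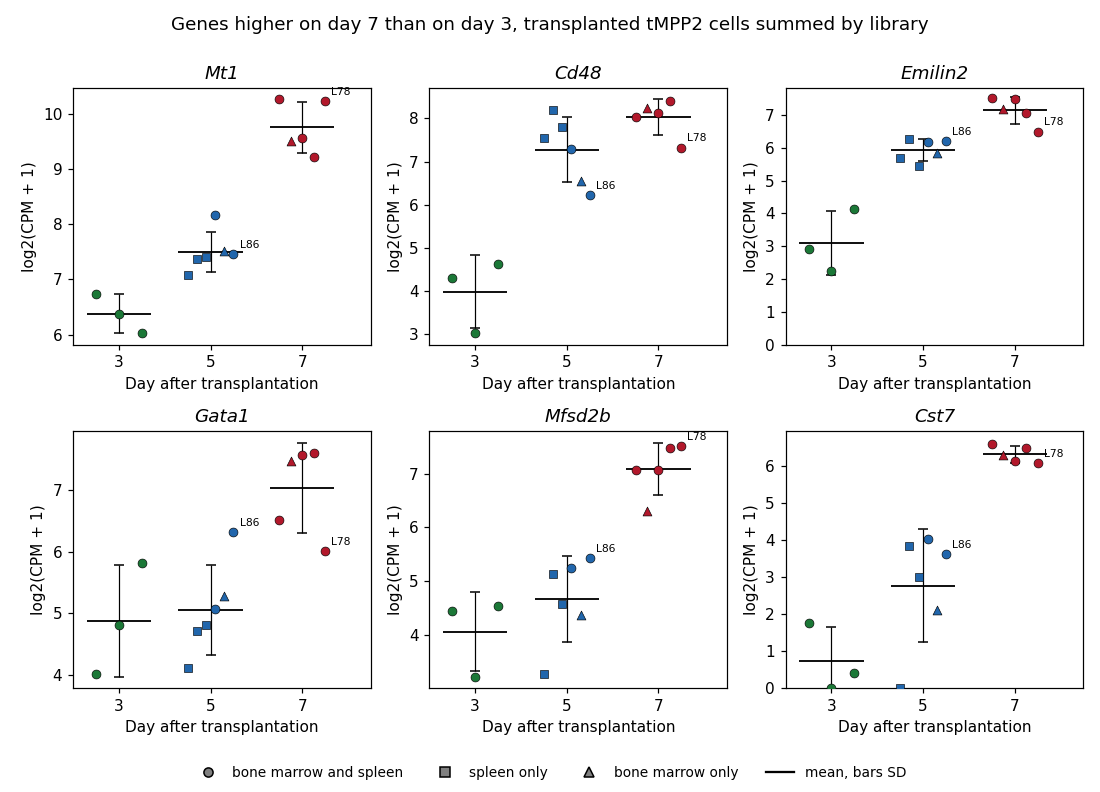
Level of Mt1, Cd48, Emilin2, Gata1, Mfsd2b and Cst7 as log2(CPM + 1) in the 14 libraries of tMPP2 cells by day; points are libraries shaped by organ label, lines are means and bars SDs. Cd48 and Emilin2 are higher on day 5 already, whereas the Mt1 points of day 7 (594 to 1228 CPM) lie above all earlier ones.

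Several interferon response genes fell over the days. Interferon signalling acts in part through interferon regulatory factors, which bind the interferon-stimulated response element in promoters of genes such as Isg15. Of 24 tested members of the list, 4 were called lower on day 7 than on day 3 (Isg15, Rtp4 and Oasl2 among them) and 6 in the trend, which added the regulator Irf7 and the antiviral gene Ifit1, against 0.553% and 0.544% of all tested genes called lower. The trend call of Irf7 ended when any 1 of 6 libraries was left out (adjusted p of 0.0506 to 0.118) and that of Ifit1 without any 1 of 10 (0.0538 to 0.223). The list median was -1.60 between day 7 and day 3, and 23 of the 24 changes were below 0, as were 5646 of all 11395. The summed list was 4421.5, 5284 and 3614 CPM on day 3 and 3258 to 3975.5 CPM on day 5. On day 7 it was 3635, 1983, 1900, 3006.5 and 3555 CPM, so the sums of the days overlapped, through L47 and L78. Ifi203 and Phf11b, 2 genes outside the list that interferon is known to induce, fell as well.

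To show the element, stretches of 3 promoters are printed as RefSeq gives them on GRCm38.p6, from 130 to 21 bases before the transcription start, 5′ to 3′ on the gene's strand. Capitals mark matches of 2 copies of GAAA with any 2 bases between them, read on either strand, where neighbouring matches may overlap. They are the promoters of a called member with 3 matches (Isg15, chr4:156200839-156200948, minus strand), of Ifit1 with 2 (chr19:34640759-34640868, plus strand) and of Phf11b with 1 (chr14:59341351-59341460, minus strand).
Isg15: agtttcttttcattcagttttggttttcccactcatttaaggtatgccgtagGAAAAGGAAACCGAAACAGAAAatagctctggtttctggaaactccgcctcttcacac
Ifit1: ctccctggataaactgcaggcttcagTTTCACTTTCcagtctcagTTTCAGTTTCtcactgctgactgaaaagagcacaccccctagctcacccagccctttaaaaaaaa
Phf11b: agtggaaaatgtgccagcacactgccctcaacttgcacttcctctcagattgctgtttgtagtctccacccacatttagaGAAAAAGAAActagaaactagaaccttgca
Within 250 bases before the start, these letters occurred in 978 of 32851 promoters of the table (2.98%), and 3 or more times in 4 of them. Of the 15 interferon list genes with a promoter entry, 8 held a match. Among genes called lower on day 7 than on day 3, 7 of 46 with an entry did (15.2%), against 4 of 53 called higher (7.55%) and 299 of 8776 tested genes (3.41%), with no test of the difference. The called lower genes with a match were Dpp4, Ifi203, Isg15, Mecom, Phf11b, Plk2 and Slfn9, and the called higher genes with one were Clca3a1, Emilin2, Lgals9 and Psmb3. Irf7 and Oasl2 had an entry and no match in this window.

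Isg15, a ubiquitin-like protein induced by interferon, had 74.1, 51.2 and 57.9 CPM on day 3. On day 5, 5 libraries held 2.99 to 9.43 CPM and L86 held 30.4 CPM, and on day 7 the values were 2.13, 0.763, 0, 1.5 and 0 CPM. The days 3 and 5 did not overlap, yet only day 7 against day 3 passed the test (log2 change -6.08 ± 0.95, adjusted p = 0.000966; day 5 against day 3 adjusted p = 0.431). Isg15 was found in 42.4% ± 8.42, 16.7% ± 9.97 and 2.35% ± 5.26 of thinned cells on days 3, 5 and 7, and in 7.95% of T cells, so the day 7 share was at or below that background.

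For Isg15, L86 thus lay nearer to the day 3 libraries, with which it shares the upper range of library numbers, than the other day 5 libraries did. L78, also in that range, had 0 CPM of Isg15. The part of library number in the day 3 levels was not tested. Rtp4, a chaperone induced by interferon, fell from 263, 352 and 190.0 CPM to 3.82 to 79.3 CPM on day 7 (adjusted p = 0.0244) and Oasl2, of the oligoadenylate synthetase family, from 73.4, 144 and 85.1 CPM to 10.8 to 44.4 CPM (adjusted p = 0.0181). Day 7 against day 3 missed the threshold for Irf7 (adjusted p = 0.0510) and Ifit1 (0.0627). Without L85, the calls ended for Rtp4 (adjusted p = 0.130) and Oasl2 (0.145), and that of Rtp4 also without L61 (0.0587) or L79 (0.0620).

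Ifi203, a member of the interferon-inducible p200 family on chromosome 1 (173920407 to 173942672, minus strand), passed the test in both comparisons with day 7. It had 249, 479 and 248 CPM on day 3, 163 to 215 on day 5 (median 198), with L86 at 184, and 69.5, 55.8, 60.7, 92.6 and 77.8 CPM on day 7. No 2 days overlapped, and the log2 change was -1.45 ± 0.22 against day 5 (adjusted p = 0.00288) and -2.19 ± 0.25 against day 3 (adjusted p = 2.61e-05). Phf11b, a zinc finger gene, had 8.17 to 36.9 CPM on days 3 and 5 and 2 counts in all on day 7 (adjusted p = 8.59e-05 against day 3).

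**Figure D3:**
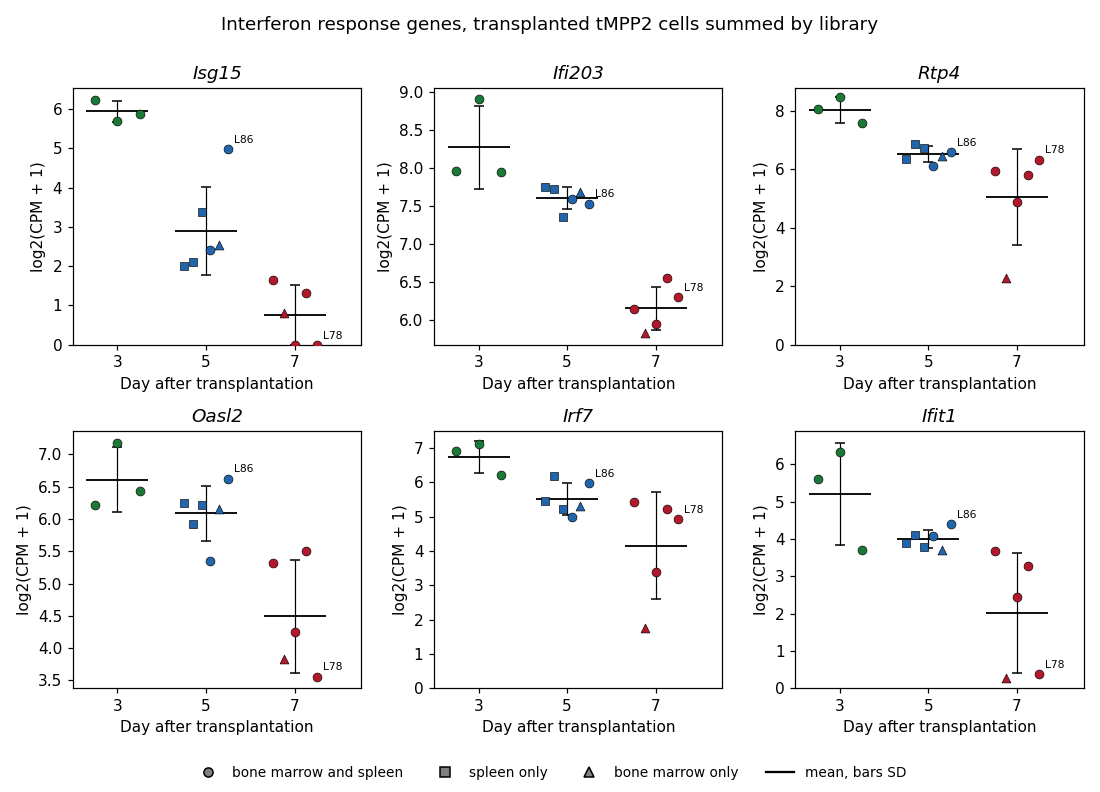
Level of Isg15, Ifi203, Rtp4, Oasl2, Irf7 and Ifit1 as log2(CPM + 1) in the 14 libraries of tMPP2 cells by day; points are libraries shaped by organ label, lines are means and bars SDs. The day 5 library L86 lies above the other 5 of its day for Isg15 (30.4 CPM) and within their range for Ifi203 (184 CPM).

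Other genes fell without belonging to these lists. S100a4, a calcium-binding protein, went from 231, 165 and 223 CPM on day 3 through 57.4 to 148 CPM on day 5 to 33.0 to 50.05 CPM on day 7, with no overlap between any 2 days (log2 change -2.29 ± 0.29 from day 3, adjusted p = 8.59e-05). Lsp1, an actin-binding protein of white cells and the 1 of 10 tested lymphoid genes called (0.553% of all tested genes were called lower), fell by 2.72 ± 0.36 (adjusted p = 0.000116) to 10.5 to 28.6 CPM. Ldhb, the lactate dehydrogenase subunit typical of oxidative tissues, fell by 3.16 ± 0.38 (adjusted p = 4.21e-05), from 130, 148 and 82.1 CPM to 7.92 to 20.1 CPM.

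A few genes of the respiratory chain rose by small amounts. Of 28 tested members of the oxidative phosphorylation list, 28 had a change above 0 between day 7 and day 3, as had 5745 of all 11395 genes. The 4 called higher, against 0.57% of all tested genes, were Cox6a1 and Cox5b of complex IV, Uqcrq of complex III and Atp5b of the ATP synthase. Cox6a1 stood at 1093, 862 and 818 CPM on day 3, 968 to 1287 on day 5 and 1336 to 1982 on day 7 (rise of 0.73 ± 0.17, adjusted p = 0.0302). The list sum was 27110 CPM in L78 against 21221 to 22407 CPM in the other day 7 libraries and 16548 to 19121 on day 3. Of 32 tested genes of ribosome biogenesis and MYC targets, Nhp2 and Npm1 were called higher, again against 0.57%. Npm1, nucleophosmin, had 1675 to 1733 CPM on day 3 and 2549, 2626, 2888, 2887 and 1868 CPM on day 7 (rise of 0.60 ± 0.14, adjusted p = 0.0415). Myc did not pass the test (adjusted p = 0.304). These 6 calls lay near the threshold. Without L85 none of them passed (adjusted p of 0.146 for Cox6a1, Atp5b and Uqcrq, 0.156 for Npm1, 0.206 for Nhp2 and 0.225 for Cox5b), and of 27 alternatives the call ended in 5 for Atp5b, 8 for Cox6a1 and 16 to 19 for the others.

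Cell cycle genes gave few calls. Of 32 tested G2/M genes, Cenpf, a kinetochore protein, was the 1 called lower on day 7 than on day 3, against 0.553% of all tested genes (log2 change -1.34 ± 0.33, adjusted p = 0.0450), with 471, 405 and 128 CPM on day 3 and 115 to 162 CPM on day 7. The Cenpf call ended when any 1 of 9 libraries was left out (adjusted p of 0.0560 to 0.193). Of the 32 G2/M changes from day 3 to day 7, 28 were below 0 (median -0.45), as were 5646 of all 11395. The summed G2/M list was 10203 CPM in L85 against 5253 and 5350 CPM in the other day 3 libraries, and 3929 to 6336 CPM on day 7. Of 32 tested genes of DNA replication and G1/S, 0 were called, with 23 changes below 0 from day 3 to day 7 (median -0.16). Mki67 was found in 90.1% ± 3.28 of thinned cells on day 3, 80.8% ± 6.13 on day 5 and 75.0% ± 13.2 on day 7, against 6.82% of T cells.

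Immediate early genes, which cells switch on within minutes of a stimulus, were highest in the spleen libraries of day 5. Their summed level was 5492, 5263 and 4826 CPM in the 3 spleen libraries, 2201 CPM in the mixed library L71, 967 CPM in the bone marrow library L72 and 726 CPM in the mixed library L86. Day 3 libraries held 561 to 2550 CPM and day 7 libraries 312 to 1002 CPM. Fos had 930, 802 and 753 CPM in the spleen libraries and 250, 63.9 and 94.1 CPM in the other day 5 libraries, and Nr4a1 189, 150 and 232 CPM against 82.3, 25.9 and 10.7 CPM. None of the 22 tested members was called between any days, although 22 changes were below 0 from day 5 to day 7 (median -2.46), as were 5795 of all 11395 (median -0.013); Nr4a1 had an adjusted p of 0.109. Spleen libraries occur on day 5 alone, so for these genes day and organ cannot be told apart. Id3, an inhibitor of helix-loop-helix factors, passed the test from day 5 to day 7 (adjusted p = 0.0365) with the same spread: 24.7, 20.2 and 19.4 CPM in the spleen libraries, 9.61, 0.566 and 2.05 CPM in the others, and 0 counts on day 7, at least 97.8-fold lower than day 5 against a floor of 3 counts over the group. Hspa5, the chaperone of the endoplasmic reticulum, was highest on day 5 in all organs, at 516 to 840 CPM, against 290 to 417 CPM on day 3 and 258 to 437 on day 7 (log2 change -0.86 ± 0.18 from day 5 to day 7, adjusted p = 0.0360). The Id3 call ended when any 1 of 8 libraries was left out (adjusted p of 0.0536 to 0.117) and that of Hspa5 without any 1 of 6 (0.0638 to 0.125). Over all alternatives the call ended in 10 of 25 for Id3 (adjusted p up to 0.352) and in 8 of 27 for Hspa5 (up to 0.708).

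**Figure D4:**
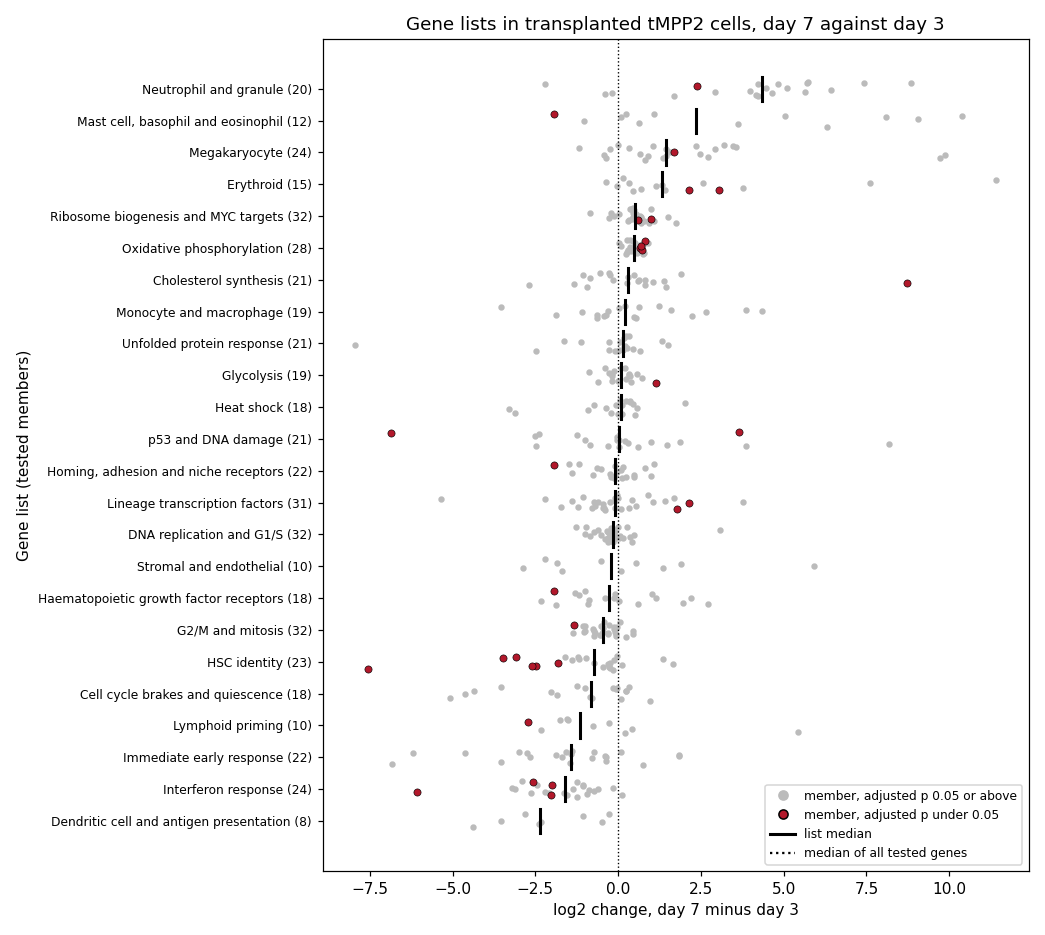
Log2 change from day 3 to day 7 in tMPP2 cells for each tested member of the gene lists with at least 5 tested members (number in brackets); red points passed the test, bars are list medians and the dotted line is the median of all 11395 tested genes. The HSC identity and interferon lists hold called members on the left alone.

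Cells of the type tMPP5 came from the same libraries and allowed a test of whether a change was larger in tMPP2. In 6 day 5 and 3 day 7 libraries with at least 5 cells of both types, the change from day 5 to day 7 differed between the types for 20 of 11522 genes (0.174%), 5 with a higher (0.0434%) and 15 with a lower change (0.13%) in tMPP2. Ly6a differed most clearly: in tMPP2 cells its median went from 318 to 72.4 CPM, and in tMPP5 cells from 495 to 677 CPM (difference of the log2 changes -2.44 ± 0.26, adjusted p = 2.74e-06). Ifi203 (-1.91 ± 0.29), Cd53, a tetraspanin of white cells (-2.26 ± 0.35), and Cd24a (-1.57 ± 0.25) differed in the same direction. Cd53 had medians of 106 and 36.4 CPM in tMPP2 cells on days 5 and 7 and of 217 and 385 CPM in tMPP5 cells. In the other direction, Slc14a1, a urea transporter of red cells, went from 62.6 to 205 CPM in tMPP2 cells and from 21.8 to 3.12 CPM in tMPP5 cells (4.49 ± 0.59), and Apoe, apolipoprotein E, from 301 to 544 CPM and from 102 to 42.1 CPM (2.34 ± 0.40).

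Most of the genes that changed most with day within tMPP2 did not pass this test. Mt1 differed by 0.14 ± 0.40 on the log2 scale (adjusted p = 0.984), with tMPP5 medians of 41.3 CPM on day 5 and 127 CPM on day 7. The difference for Cd48 was 0.015 ± 0.30 and that for Hlf -0.83 ± 0.47 (adjusted p = 0.722). Gata1 differed by 3.41 ± 0.82 (adjusted p = 0.0967) and Mecom by -2.79 ± 0.69 (adjusted p = 0.109), both short of the threshold. A p above it does not show that the 2 types changed alike. For the type tMPP1, 1 day 7 library held at least 5 cells of both types, too few for this test. With a minimum of 3 cells (6 day 5 and 2 day 7 libraries, the latter with 3 and 7 tMPP1 cells), the change in tMPP2 was called higher for 27 of 11994 genes (0.225%) and lower for 2 (0.0167%).

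**Figure D5:**
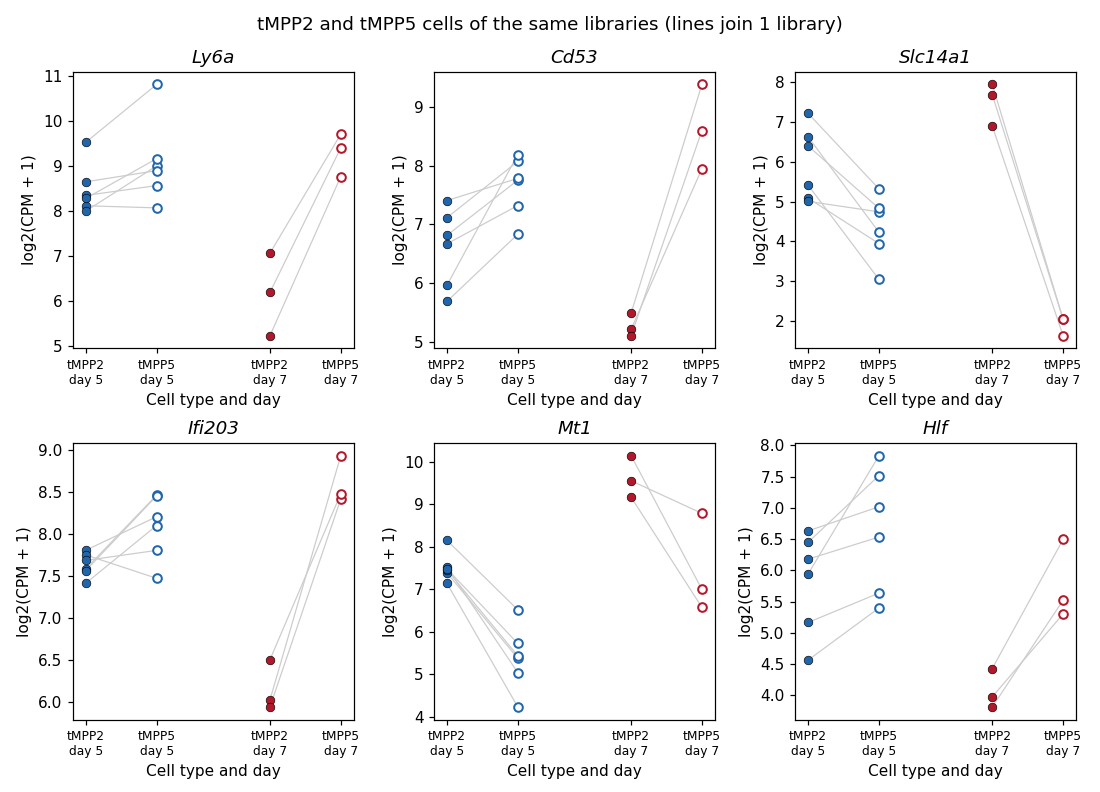
Level of Ly6a, Cd53, Slc14a1, Ifi203, Mt1 and Hlf as log2(CPM + 1) in tMPP2 (filled) and tMPP5 (open) cells of 6 day 5 and 3 day 7 libraries; each line joins both types of 1 library. For Ly6a the tMPP2 points fall from day 5 to day 7 and the tMPP5 points do not, whereas Mt1 is higher on day 7 in both types.

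The libraries left out of the fit give values of the same genes without a test. In the 5 small day 7 libraries (2 to 4 tMPP2 cells each), Hlf was at 0 to 37.9 CPM, Mt1 at 364 to 1858 CPM, Cd48 at 104 to 569 CPM and Gata1 at 88.5 to 151 CPM. In the day 1 library L84 (13 cells), Hlf stood at 111 CPM, Procr at 177, Ly6a at 885, Isg15 at 77.6, Mt1 at 93.6 and Cd48 at 37.5 CPM, with 0 counts of Gata1. The library L77, which pooled days 5 and 7, held 1071 CPM of Mt1 and 312 CPM of Cd48 in 8 cells. Its Isg15 level was 36.3 CPM, above the highest day 5 library of the fit (L86, 30.4 CPM). Isg15 was at 0 to 5.11 CPM in the small day 7 libraries and at 3.67 CPM in the day 1 library L83 (3 cells). The libraries L80 (9 cells) and L88 (6 cells), which pooled days 1 and 3, held 11.8 and 45.9 CPM of Isg15.

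The share of tMPP2 cells among transplanted cells fell between day 5 and day 7. In libraries with at least 10 annotated transplanted cells, the share was 40.6% ± 6.48 (SD) in the 3 libraries of day 3. It was 51.5% ± 13.7 in the 6 of day 5 and 23.5% ± 14.2 in the 8 of day 7. Between day 7 and day 5 the difference passed a two-sided exact permutation test over libraries (p = 0.00333, adjusted over 3 comparisons 0.00999). The difference was -27.9 percentage points. Without the spleen libraries it was -35.8 points with 3 day 5 libraries left (exact p = 0.0242, adjusted 0.0727), and with libraries of 5 or more transplanted cells let in it was -13.3 points (adjusted exact p = 0.640), neither past the threshold. The number of genes detected per tMPP2 cell at 20000 counts was 3679 ± 349 on day 3, 3822 ± 69.1 on day 5 and 3590 ± 315 on day 7, and no pair of days passed the exact test (adjusted p of 0.429 or above).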

How the data were processed

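Counts per gene and cell were deposited by the authors as whole numbers without normalization, for 23154 genes and 2879 cells; whether reads or molecules were counted is not given in the sources used here. Alignment with TopHat, counting with HTSeq and the build mm10 are named, without versions, per the submitters' processing notes. Cells without annotation (578) were left out; no 2 tMPP2 columns were identical.

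Raw counts were summed over the tMPP2 cells of a library (at least 5 cells) and tested with edgeR 4.0.16 in R 4.3.3 (filterByExpr, TMM, robust quasi-likelihood F tests, two-sided), days 3, 5 and 7 in 1 fit (11 residual degrees of freedom, biological coefficient of variation 0.706), called at a Benjamini-Hochberg adjusted p under 0.05. SE is the log2 change divided by the square root of F. The trend took day as a number. CPM of single genes per library carry TMM factors. List sums do not, nor do CPM of all 348 cells, of other types, of single cells and of libraries outside the fit. In the tMPP5 comparison, the CPM of both types are without TMM factors. The tMPP5 comparison was a type by day interaction with the library as block. Permutation tests were exact (scipy 1.17.1). Gene positions are from the GRCm38 annotation.

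Named by rule were, per comparison, the 10 most changed called genes in each direction that over 50% of the higher day's libraries detected (without predicted transcripts, ribosomal protein and sex-linked marker genes), up to 4 members per list, and a set of standard markers; the text gives a selection of these, and some genes are not reported here. Irf7, Ifit1, Ifi203, S100a4, Gfi1b, Nkx2-3, Egfl7, Fos, Slc14a1, Cd53, Cd24a and Apoe were named after their values were seen, as were the genes listed for their promoter match. The members and the 26 lists were chosen with earlier results of these data known. Alternatives covered normalization, tool, depth, filter, cell minimum, organ, library number and each library left out. The minimum of 10 cells and the removal of libraries that also hold steady state cells left out no library. Those alternatives repeat the main fit, and the tallies of alternatives count them. The library number alternative left out L86 and L78, so it cannot separate library number from day 3. Losses given for single libraries left out do not count the other alternatives.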

Additional observations from a re-analysis of the deposited data

Results flagged for a closer look

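Each of 172 values (named genes, list sums, and counts and genes per cell, on day 5 or day 7) was examined for a library far from the others of its day, and 24 had one. Chance gives about 1 in 20 for independent normal values, and these values share libraries. L86 accounted for 9 and L78 for 7. The 3 libraries of day 3 were too few for this rule and were not examined.

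On day 5, L86 was high for Ly6a (722 CPM, others 245 to 400), Isg15 (30.4, others 2.99 to 9.43), Gata1 (78.9, others 16.4 to 37.8), Cdk6 (16.8, others 0.473 to 6.47), Fcer1a (1.03, others 0) and Ms4a2 (1.64, others up to 0.566). Its summed lists were high for monocyte genes (420.0 CPM), dendritic cell genes (467) and glycolysis (7859). Single high values were Mt1 in L71 (285 CPM), Itga2b in L69 (246), Elane in L72 (28.2) and the p53 list in L68 (701).

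On day 7, L78 was high for Pdzk1ip1 (66.7 CPM) and Uqcrq (1216), and for the summed monocyte (1211), p53 (687), oxidative phosphorylation (27110 CPM) and cholesterol synthesis (739) lists, and low for the lineage transcription factor list (1577). L63 was high for Fgd5 (0.499) and Fcer1a (97.6), L60 for Car1 (228), and L47 was low for glycolysis (5082).

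The change from day 5 to day 7 differed between tMPP2 and tMPP5 cells by the interaction test for the following named genes, given as the tMPP2 change minus the tMPP5 change on the log2 scale. It was above 0 for Slc14a1 (4.49), Apoe (2.34), Ptpn11 (2.26), Vamp5 (1.35) and Lgals9 (1.34). It was below 0 for Syne2 (-6.74), Apobr (-6.11), Mpnd (-5.83), Vldlr (-5.42), Milr1 (-4.01), Ly6a (-2.44), Cd53 (-2.26), Pglyrp2 (-2.12), Emb (-1.93), Ifi203 (-1.91), Cd24a (-1.57), Adgrl4 (-1.27) and Kcnq1ot1 (-1.24).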

How the results depend on the processing

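No paired analysis was possible because the labels give no replicate numbers that tie libraries of different days; the tMPP5 comparison paired both types within a library. Between 3 and 6 libraries a day, of 11 to 38 cells each, limit the precision, and organ and library number are tied to day.

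The counts of called genes moved most. Day 5 against day 3 (2) became 40 with DESeq2, 1 with limma voom, 16 with limma-trend on mean log values, 0 with cells thinned to 20000 counts, 14 without a filter, 0 without spleen libraries, 35 without L77 and above on days 5 and 7, and 18 with 2 days alone; leaving out 1 library gave 1 to 14. Day 7 against day 5 (24) became, in the same order, 269, 55, 168, 42, 89, 4 and 79, with 116 at 3 cells per library and 6 with organ as a covariate; leaving out 1 library gave 14 to 55. Day 7 against day 3 (128) became 497, 59 and 236 by tool, 199 without a filter, 55 without spleen libraries, 297 without L77 and above, and 27 with 2 days alone; leaving out 1 library gave 39 to 265. The trend (169) became 600 and 112 by DESeq2 and voom, 1324 without a filter, 303 at 3 cells, 88 without spleen libraries, 255 without L77 and above, and 1016 with day 1 added; leaving out 1 library gave 82 to 255. The tMPP5 comparison (20) gave 11 genes at 3 cells.

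Among called genes for day 7 against day 3, voom called 11 higher and 48 lower, against 65 and 63. The mean-log fit shifted the median of all genes to 0.24 for day 5 against day 3 and to -0.23 for day 7 against day 5. Hlf, Procr, Isg15, Ifi203, Mt1, Cd48, Emilin2, S100a4, Lsp1 and Ldhb passed between day 7 and day 3 in all 27 alternatives, some of which repeat the main fit.

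The difference in tMPP2 share between day 7 and day 5 was -13.3 percentage points at 5 transplanted cells per library and -35.8 without spleen libraries, neither past the threshold. Genes per cell turned direction between day 7 and day 3 without thinning (674) and without L79 (99.6) or L78 (24), and between day 5 and day 3 without L85 (-12.6). Leaving out 1 library gave -245 to 99.6 for the first and -12.6 to 332 for the second.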
